A study of Mus musculus with 23 samples.

Results

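Livers of knockout mice that received phenobarbital (label group CTNNB1KO_PB, 7 arrays) were compared with livers of untreated wild-type mice (WT_H2O, 5 arrays), which gives the combined effect of a gene deletion and a drug. These 12 arrays were chosen by their sample titles from the 23 arrays of the series, and all 13826 genes that passed the filter were described. All mice were males of the C3H strain. In the knockout, Cre recombinase driven by the albumin promoter acted on Ctnnb1, the gene of beta-catenin, through loxP sites around exons 3 and 6. The deletion was thus aimed at hepatocytes, and which other liver cells kept the gene was not checked here. Treated animals ate 0.05% phenobarbital for 12 weeks and controls ate drug-free diet, while the labels also name water as vehicle with a dose of 0%. The groups with a single change, untreated knockout (CTNNB1KO_H2O, 7 arrays) and treated wild type (WT_PB, 4 arrays), served to show which levels neither change gave alone. Nothing in the labels says that the arrays of a group came from separate animals, so the p values cover only how far these samples spread, which may be technical.

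Phenobarbital activates the constitutive androstane receptor (CAR, gene Nr1i3) in hepatocytes, which then induces cytochromes P450, conjugating enzymes and transporters. Beta-catenin carries the canonical Wnt signal to the nucleus. In the liver lobule it maintains the perivenous programme of hepatocytes next to the central vein, which includes glutamine synthetase and several cytochromes P450, some of them also CAR targets.

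Signals were log2 values from Affymetrix arrays, 1 per sample, and the array medians lay between 5.09 and 5.14 in all 23 arrays. Arrays of untreated wild type correlated with each other at 0.989 or more and those of treated knockout at 0.968 or more, and the median SD per gene was 0.122 and 0.136. Ctnnb1 itself was at 12.20 ± 0.024 (SD, n = 5) in untreated wild type and at 12.19 ± 0.094 (n = 7) in treated knockout (log2 change -0.01, SE 0.054, adjusted p = 0.89), and none of its 3 probe sets was called. Where those probes lie relative to the deleted exons was not known here, so they do not check the genotype. The hepatocyte list kept its mean level, with 13.39 to 13.54 in untreated wild type and 13.43 to 13.55 in treated knockout. The mean of 38 macrophage markers separated the treated knockout arrays from each other: arrays 4, 5 and 7 lay at 8.71, 8.98 and 8.66, and the other 4 between 6.84 and 7.97. The smallest and largest values of untreated wild type were 6.29 and 6.83. Counts of most lists described below are therefore also given without these 3 arrays, where 8.46% of all genes were called.

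Deletion and drug together changed 2935 of 13826 genes, or 21.2% (limma with Benjamini-Hochberg adjustment across every gene tested and a threshold of 0.05, here and throughout). Of these, 1753 were higher (12.7% of genes tested) and 1182 lower (8.55%) in treated knockout. These shares are the reference for the list counts below. A change of at least 2-fold was reached by 290 higher and 109 lower genes. There was no overlap between treated knockout and untreated wild-type arrays in 1779 genes (12.9%), and 1607 of those were called. The median log2 change over all genes was 0.01. Cyp2b10 rose most and Cyp2e1 fell most. Of the 12 largest rises without overlap 4 were those of CAR-induced P450s (Cyp2b10, Cyp2b9, Cyp2c55 and Cyp2c65), and the others included Ubd, Nebl, Cd36 and Mt1. Without treated knockout arrays 4, 5 and 7 the count was 1169, of which 1100 were among the 2935. Fewer samples are one difference of that fit. Leaving out any 1 array gave 2249 to 3484.

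**Figure D1:**
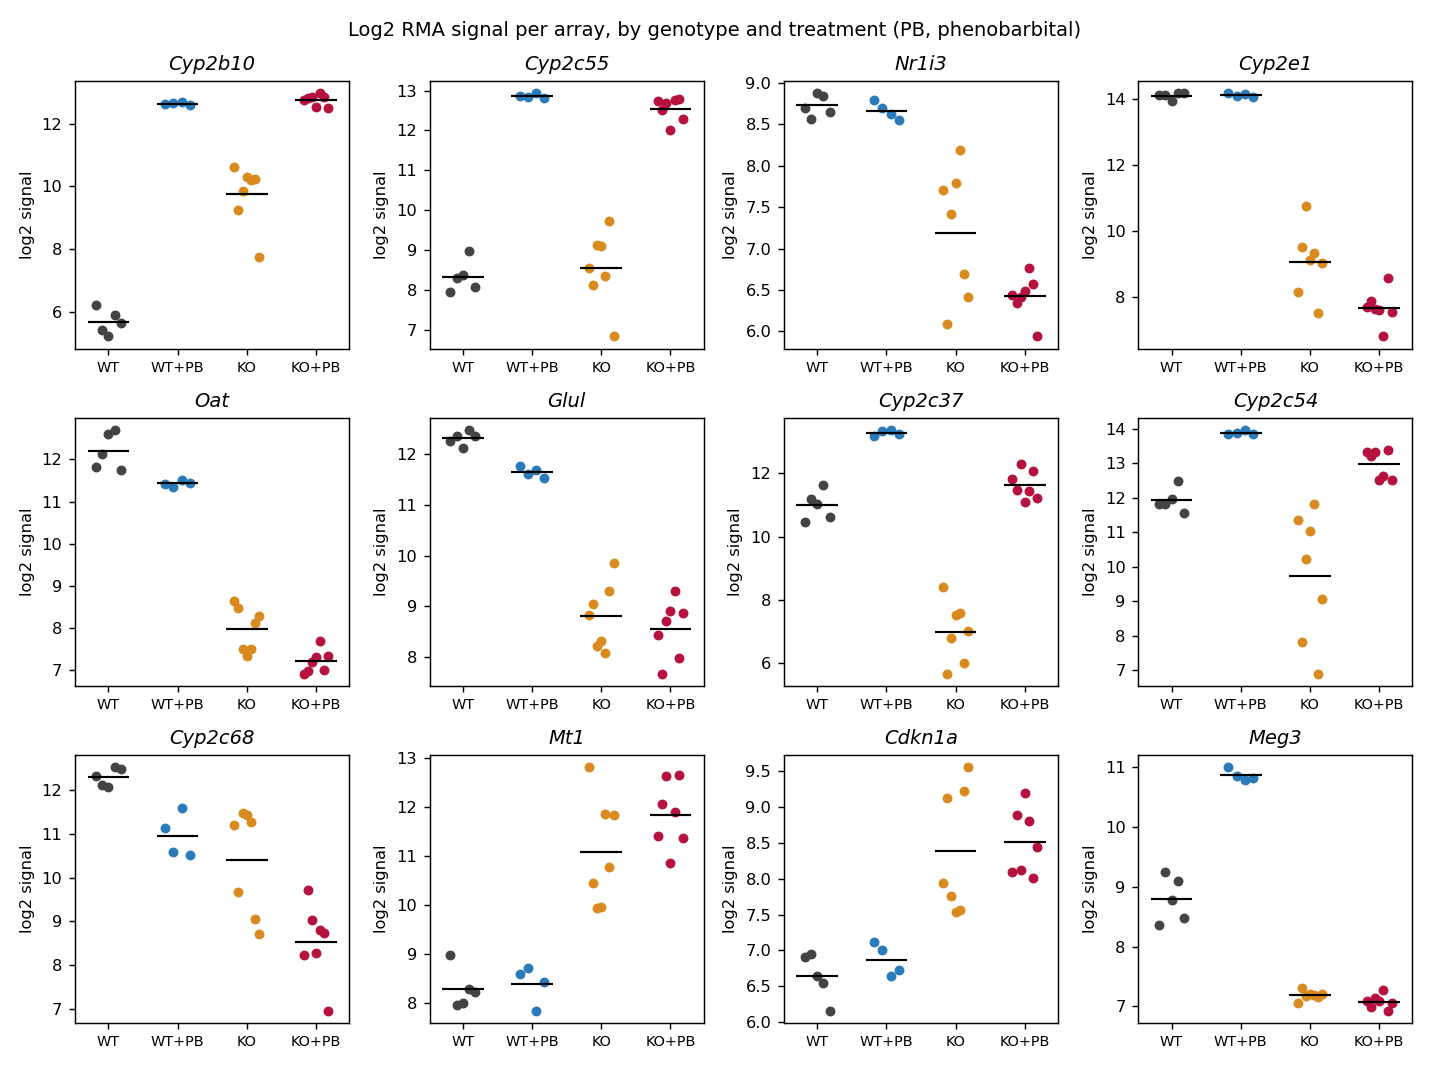
Log2 signal of 12 genes on each array (points) with the group mean (line) in untreated wild type (WT), treated wild type (WT+PB), untreated knockout (KO) and treated knockout (KO+PB). Cyp2b10 and Cyp2c55 were high in both treated groups, Cyp2e1, Oat and Glul were low in both knockout groups, and Cyp2c68 was lowest in treated knockout, with a mean of 8.54 against 12.30 in untreated wild type.

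Cyp2b10 encodes a P450 that CAR induces and lies on chromosome 7 (25897658 to 25926624, build GRCm38.p6). It lay at 6.22, 5.42, 5.22, 5.90 and 5.66 on the untreated wild-type arrays. In treated knockout its lowest, median and highest values were 12.51, 12.82 and 12.97, far above every untreated wild-type array. The joint log2 change was 7.07 (SE 0.32, 95% interval 6.4 to 7.75, adjusted p = 4.71e-13), a fold of 135. All 3 probe sets of Cyp2b10 were called higher, with log2 changes from 7.07 to 7.84. Treated wild type had reached nearly the same level, with a mean of 12.64, and untreated knockout stood at 9.75 ± 0.98 (n = 7).

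Cyp2c55, a further P450 of the CAR set (chromosome 19, 39006940 to 39042690), read 7.94, 8.30, 8.36, 8.98 and 8.08 without either change and between 12.00 and 12.78, with a median of 12.70, in treated knockout. The groups did not overlap, and the log2 change was 4.21 (SE 0.32, adjusted p = 3.47e-09). Against treated wild type the difference was -0.33 (adjusted p = 0.524). Cyp2c65 behaved otherwise. It was at 2.98, 3.24, 3.44, 3.37 and 3.31 in untreated wild type, below the filter's level of 4.52 to 4.60 on all 5 arrays, and at 5.93 to 8.03 with a median of 7.11 in treated knockout (log2 change 3.83, SE 0.25, adjusted p = 3.89e-10). Every treated knockout array was below every treated wild-type array, which read 10.17, 10.08, 10.16 and 9.98 (difference -3.01, adjusted p = 5.66e-08). Because the starting values lie in the background range, the sizes of such changes are uncertain.

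The list of 40 tested CAR targets held 21 that rose and 2 that fell, with a median log2 change of 0.67 against 0.01 for all genes. The 2 that fell were Cyp1a2 and Aldh3a2, which also stand in the perivenous list. Against treated wild type, 3 members were higher and 16 lower in treated knockout, and against untreated knockout 20 were higher and 0 lower. Over all 13826 genes, 1649 were higher and 1123 lower in the first comparison, and 162 and 122 in the second. Outside the P450 family, the glutathione transferase Gsta2 rose by 1.49 (SE 0.23, adjusted p = 8.14e-05) and the microsomal epoxide hydrolase Ephx1 by 1.21 (SE 0.13, adjusted p = 1.65e-06). Both genes had higher values on every treated knockout array than on any array of the other 3 groups, yet neither passed the test against treated wild type (differences 0.40 and 0.27, adjusted p = 0.251 and 0.19). Abcc4, an efflux pump, rose by 1.61 (SE 0.36, adjusted p = 0.00288) but stayed below treated wild type by 1.47 (adjusted p = 0.00958). Without arrays 4, 5 and 7 of treated knockout, 16 CAR targets rose and 2 fell.

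Nr1i3, which encodes CAR and also stands in the perivenous list (chromosome 1, 171213934 to 171218845), read 8.70, 8.56, 8.87, 8.84 and 8.65 in untreated wild type. In treated knockout it lay between 5.94 and 6.77, with a median of 6.44, and no array overlapped. The log2 change was -2.30 (SE 0.26, 95% interval -2.84 to -1.76, adjusted p = 1.88e-06). The receptor's RNA was thus 4.93-fold lower in the same livers in which Cyp2b10 was 135-fold higher.

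**Figure D2:**
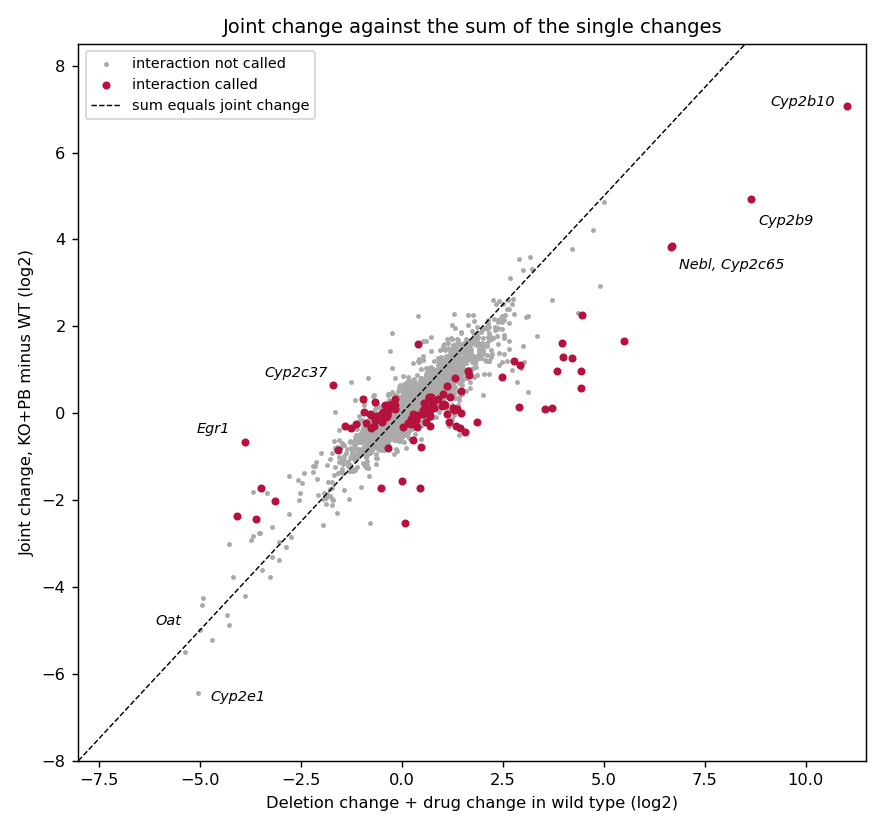
Each point is 1 of 13826 genes: the x axis is the log2 change of the deletion plus that of the drug in wild type, the y axis the log2 change of both together. Both axes share the untreated wild-type arrays. The points on the dashed line have a joint change equal to the sum, and the 121 genes with a called interaction are red. Cyp2b10, Cyp2b9, Nebl and Cyp2c65 lie below the line at the upper right.

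Whether both changes added up was tested by the interaction, the drug change in knockout minus that in wild type, which equals the joint change minus the sum of the single changes. It was called in 121 genes (0.875%), 49 above and 72 below 0. For Cyp2b10 the single changes summed to 11.02 on the log2 scale, and the interaction was -3.95 (adjusted p = 4e-05), since untreated knockout was already 4.07 above untreated wild type. The highest value on any array of the table was 14.92, and whether a limit of the signal range bears on such sums was not tested. Nebl, which encodes the actin-binding protein nebulette, reached 8.11 ± 0.21 (n = 7) in treated knockout from 4.26 ± 0.30 (n = 5), against 9.47 ± 0.18 (n = 4) in treated wild type. Its joint log2 change was 3.84 (SE 0.18, adjusted p = 4.94e-13) and its interaction -2.83 (adjusted p = 5.39e-07). The untreated wild-type mean of Nebl lay under the filter's level of 4.52 to 4.60, so both sizes are uncertain. The interaction count fell to 75, 63 and 78 without treated wild-type array 1, 3 or 4. Leaving out all other single arrays gave 86 to 146.

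Of the 12 largest falls without overlap, 9 were those of genes in the perivenous and Wnt target list. The exceptions were Hsd3b5, Cyp2c68 and Tenm3, a teneurin (-3.61, adjusted p = 1.59e-15). Of 45 tested members of the perivenous and Wnt target list, 32 fell and 2 rose, with a median log2 change of -1.33. Cyp2e1, the perivenous P450 that oxidises ethanol (chromosome 7, 140763819 to 140774990), read 14.11, 14.11, 13.94, 14.16 and 14.17 in untreated wild type. In treated knockout its lowest, median and highest values were 6.79, 7.62 and 8.58. The groups were separated by more than 5 log2 units, and the change was -6.43 (SE 0.36, 95% interval -7.17 to -5.69, adjusted p = 1.54e-11), or 86.3-fold.

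Glul, glutamine synthetase (chromosome 1, 153899929 to 153909723), went from 12.27, 12.36, 12.13, 12.47 and 12.36 to between 7.68 and 9.30, with a median of 8.72. Its log2 change was -3.76 (SE 0.27, adjusted p = 1.64e-09), and treated and untreated knockout did not pass the test against each other (-0.25, adjusted p = 0.701). Tbx3, a T-box transcription factor and Wnt target, read 7.61, 7.88, 7.65, 7.30 and 6.95 in untreated wild type and was under the filter's level on all 7 treated knockout arrays (log2 change -4.42, adjusted p = 4.35e-16). Values that low have no reliable size. The Wnt feedback gene Axin2 fell by 0.81 (SE 0.11, adjusted p = 1.44e-05) and the R-spondin receptor Lgr5 by 2.03 (SE 0.13, adjusted p = 1.85e-10). Further falls were those of Lect2, a secreted hepatocyte protein (-5.22), the calcium-binding Rgn (-4.65), the vasopressin receptor Avpr1a (-4.25) and the dicarboxylate transporter Slc13a3 (-4.20), with adjusted p from 1.83e-14 to 1.97e-07. Rhbg, an ammonia transporter, fell by 1.33 (adjusted p = 1.54e-07). The exceptions were Car2, a carbonic anhydrase, and Cib3, a calcium and integrin binding protein, which rose by 1.04 and 2.04 (adjusted p = 0.0235 and 0.0167). They were named after their values were seen. Without arrays 4, 5 and 7 of treated knockout 30 members fell and 0 rose.

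Of 33 tested genes of the periportal zone, 11 rose and 2 fell, with a median of 0.18. Aldh1b1, a mitochondrial aldehyde dehydrogenase, rose by 1.58 (SE 0.18, adjusted p = 2.36e-06), Hsd17b13, a lipid droplet enzyme, by 0.96 (SE 0.14, adjusted p = 5.45e-05), Gas2 by 0.94 (SE 0.089, adjusted p = 1.45e-07) and Cyp2f2, a periportal P450, by 0.42 (SE 0.059, adjusted p = 3.5e-05). In treated wild type Aldh1b1 was lower than in untreated wild type by 0.78 (adjusted p = 0.0358), and its interaction was 1.17 (adjusted p = 0.0318, lost in 12 of 23 fits that left out 1 array, up to 0.101). Without treated knockout arrays 4, 5 and 7, 6 periportal genes rose and 1 fell.

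**Figure D3:**
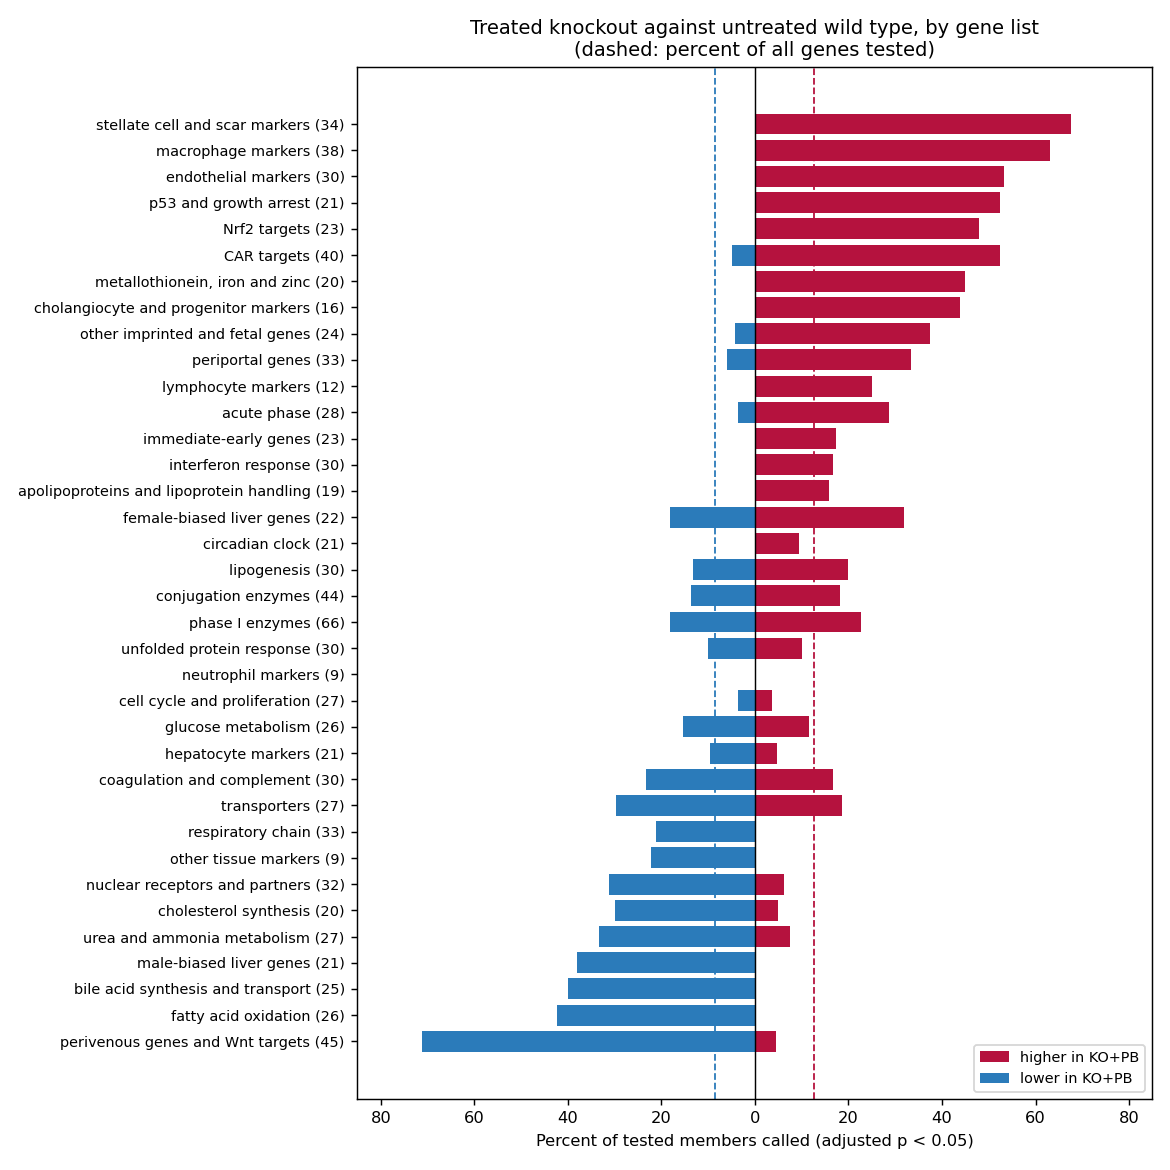
For each gene list with at least 5 tested members, bars show the percent of its tested members (number in parentheses) that were called higher (right, red) or lower (left, blue) in treated knockout than in untreated wild type. Dashed lines mark the share of all genes tested, 12.7% higher and 8.55% lower. Perivenous genes reach furthest to the left and stellate cell and macrophage markers furthest to the right.

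Several metabolic lists contained falls and few or no rises against untreated wild type. Against untreated knockout, 0 members of the fatty acid oxidation, bile acid, cholesterol synthesis and respiratory chain lists were lower. In the urea and ammonia list 2 were lower, and 1 bile acid gene was higher. Over all 13826 genes only 162 were higher and 122 lower in that comparison, so 0 calls say little about a list of this size. Of 26 genes of fatty acid oxidation 11 fell and 0 rose, with a median of -0.24, and 5 fell without treated knockout arrays 4, 5 and 7. Among them were Pdk4, the kinase that restrains pyruvate dehydrogenase (-2.10, SE 0.24, adjusted p = 2.69e-06), the peroxisomal thiolase Acaa1a (-0.86, SE 0.065, adjusted p = 3.32e-09) and the fatty acid receptor Ppara (-0.94, SE 0.22, adjusted p = 0.00417). Without those arrays Ppara was at -0.64 and no longer called (adjusted p = 0.0823). The changes of Acaa1a were -0.77 with the deletion alone and -0.80 with the drug alone, and its interaction was 0.71 (adjusted p = 0.000146). Bile acid synthesis and transport had 10 falls and 0 rises among 25 genes (6 falls without those arrays), including the sterol hydroxylase Cyp27a1 (-1.09, SE 0.18, adjusted p = 0.000185) and the uptake carrier Slco1b2 (-1.42, SE 0.18, adjusted p = 1.31e-05). Cyp7a1, the rate-limiting enzyme of bile acid synthesis, fell by 1.05 (SE 0.33, adjusted p = 0.0277). That call ended without untreated wild-type array 2 or 3 or treated knockout array 1, 5 or 7, with adjusted p up to 0.0978, and without treated knockout arrays 4, 5 and 7 together (0.0963).

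Cholesterol synthesis showed 6 falls and 1 rise among 20 genes, and 6 falls also without treated knockout arrays 4, 5 and 7. Hsd17b7 (-0.82, SE 0.15, adjusted p = 0.000472) and Cyp51 (-0.77, SE 0.15, adjusted p = 0.00127), enzymes of the sterol pathway, fell furthest. Neither had fallen with the drug in wild type (0.29 and 0.03, adjusted p = 0.444 and 0.973). In the urea and ammonia list, which shares Glul, Oat, Rhbg and Slc1a2 with the perivenous list, 9 of 27 fell and 2 rose (7 and 2 without those arrays). Of 33 respiratory chain genes 7 fell and 0 rose, and 3 fell without those arrays. The largest fall, of the complex I subunit Ndufv2, was 0.36 (SE 0.063, adjusted p = 0.000372).

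Cd36, a fatty acid transporter, read 6.68, 6.37, 6.26, 7.48 and 5.79 in untreated wild type and 9.97 to 10.70, with a median of 10.19, in treated knockout. All 7 arrays lay above all 5, and the log2 change was 3.79 (SE 0.34, adjusted p = 6.22e-08). The lipoprotein lipase Lpl rose by 1.67 (SE 0.34, adjusted p = 0.00166). In the lipogenesis list, which holds Cd36, 6 of 30 rose and 4 fell, against 3 and 0 without treated knockout arrays 4, 5 and 7. In the apolipoprotein and lipoprotein list, which holds Lpl, 3 of 19 rose and 0 fell (2 and 0 without those arrays). Called members made up 33.3% of the lipogenesis list and 15.8% of this one, against 21.2% of all genes. Against untreated knockout 0 members of either list were higher, and 1 of each was lower, beside 162 higher and 122 lower of all 13826 genes.

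Of 21 male-biased liver genes 8 fell and 0 rose (3 and 1 without treated knockout arrays 4, 5 and 7), and of 22 female-biased ones 7 rose and 4 fell (3 and 2). Hsd3b5, a male-biased steroid dehydrogenase, read 12.41, 12.66, 12.61, 12.32 and 12.79 in untreated wild type. In treated knockout its values from array 1 to 7 were 10.91, 10.05, 6.11, 4.05, 3.77, 9.26 and 5.27. Every one lay below untreated wild type, but they spread over 7 log2 units, and the lowest were those of arrays 4, 5 and 7, which had the highest macrophage marker levels. The log2 change was -5.50 (SE 1.5, adjusted p = 0.0119), and without arrays 4, 5 and 7 it was -3.48 (adjusted p = 0.185). The part of the macrophage levels in this result was not tested.

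The metallothioneins Mt1 and Mt2, small cysteine-rich proteins that bind zinc and cadmium, are neighbours on chromosome 8. Their RNA is induced through metal response elements, whose core is written TGCGCNC or TGCACNC. The 250 bases before each RefSeq start (GRCm38.p6, both on the plus strand) are shown because the pair rose together. Capitals mark every match to these letters on either strand: 1 in Mt1 at chr8:94178839-94179088 and 3 in Mt2 at chr8:94172368-94172617. Of 32851 promoters of that length in the table, 21.4% hold at least 1 such match (12.5% TGCGCNC, 10.4% TGCACNC). A match describes the letters only.
Mt1: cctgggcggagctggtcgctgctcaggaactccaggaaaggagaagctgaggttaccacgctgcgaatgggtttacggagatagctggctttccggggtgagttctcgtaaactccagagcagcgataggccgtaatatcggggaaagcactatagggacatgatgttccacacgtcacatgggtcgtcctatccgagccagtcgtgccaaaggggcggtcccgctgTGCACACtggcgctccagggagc
Mt2: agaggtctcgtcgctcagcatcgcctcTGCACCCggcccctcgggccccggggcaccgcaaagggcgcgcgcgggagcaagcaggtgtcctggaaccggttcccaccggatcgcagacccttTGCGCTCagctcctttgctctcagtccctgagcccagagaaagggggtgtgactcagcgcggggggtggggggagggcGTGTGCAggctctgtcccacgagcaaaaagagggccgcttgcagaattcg

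Mt1 read 8.99, 7.96, 8.0, 8.29 and 8.22 in untreated wild type and 10.86 to 12.66, with a median of 11.91, in treated knockout. Mt2 read 8.04, 7.06, 6.61, 7.26 and 7.28, and then 9.15 to 11.65 with a median of 10.72. Neither gene overlapped between the groups. The log2 changes were 3.56 (SE 0.42, adjusted p = 3.4e-06) and 3.31 (SE 0.57, adjusted p = 0.000299). The second probe set of Mt1 was also called, with a change of 0.47. Untreated knockout had means of 11.09 and 10.24, and the drug in knockout did not pass the test for either (adjusted p = 0.368 and 0.838). In the list of metallothionein, iron and zinc genes 9 of 20 rose and 0 fell, against 5 and 0 without treated knockout arrays 4, 5 and 7.

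Of 21 genes of p53 and growth arrest 11 rose and 0 fell, with a median of 0.67, and without treated knockout arrays 4, 5 and 7 the counts were 7 and 1. Against untreated knockout 0 were higher and 0 lower, beside 162 and 122 of all 13826 genes. Cdkn1a, the cell cycle inhibitor p21, read 6.91, 6.95, 6.65, 6.54 and 6.16 in untreated wild type and 8.01 to 9.19, with a median of 8.44, in treated knockout. The groups did not overlap, and the log2 change was 1.87 (SE 0.32, adjusted p = 0.0003). Both of its probe sets were called higher. The stress-induced Ddit4 rose by 1.43 (SE 0.32, adjusted p = 0.00363), Gadd45b by 1.12 (SE 0.21, adjusted p = 0.000742) and the antiproliferative Btg2 by 0.90 (SE 0.21, adjusted p = 0.00423). Without those arrays Btg2 was at 0.61 and no longer called (adjusted p = 0.0832). Of 27 cell cycle genes 1 rose and 1 fell, and 0 of either without those arrays, although the list's median was 0.46. The proliferation marker Mki67 was higher by 1.32 (95% interval 0.26 to 2.39, adjusted p = 0.0682) and Ccnd1, cyclin D1, by 1.15 (95% interval -0.09 to 2.39, adjusted p = 0.174), and neither passed. Of 23 Nrf2 targets, genes of the antioxidant response, 11 rose and 0 fell, with 5 and 0 without treated knockout arrays 4, 5 and 7. Gsta2, Gstm1, Ephx1 and Abcc4 stand in the CAR list too.

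**Figure D4:**
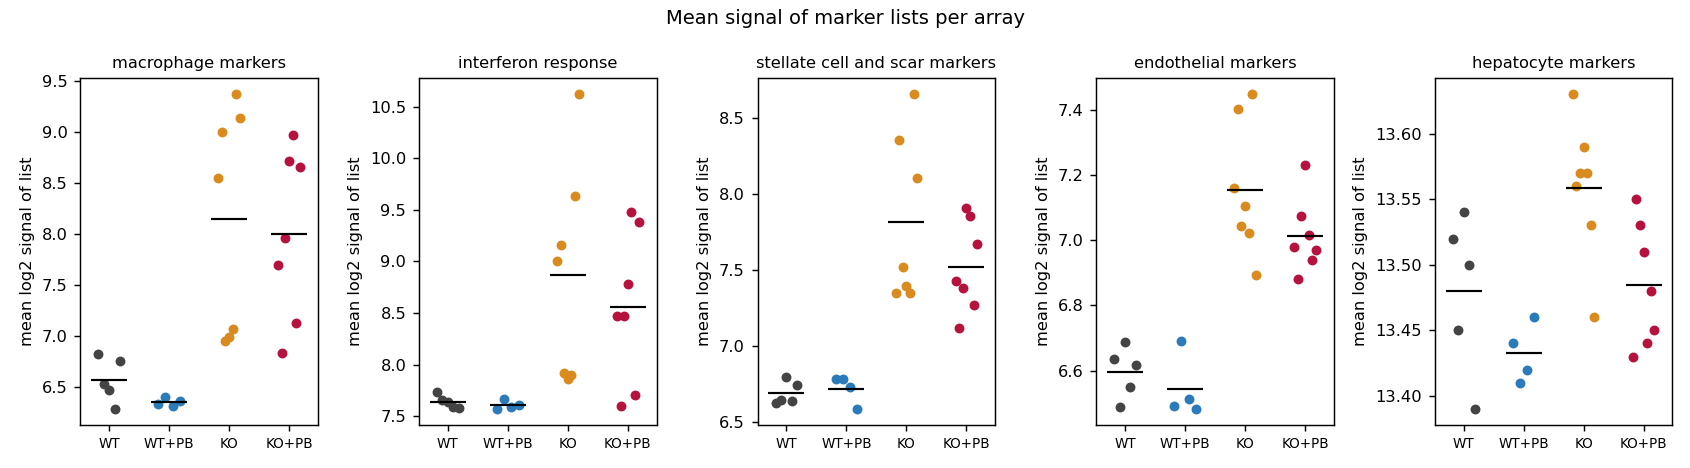
Mean log2 signal of 5 gene lists on each array (points), with group means (lines). Macrophage and interferon levels vary widely among the knockout arrays of both treatments, and the hepatocyte list stays between 13.39 and 13.63 on all arrays (each panel has its own axis).

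Markers of several other liver cell types were higher in treated knockout than in untreated wild type. Of 38 macrophage markers 24 rose and 0 fell (median 1.5), of 34 stellate cell and scar markers 23 and 0 (median 0.84), of 30 endothelial markers 16 and 0 (median 0.33) and of 16 cholangiocyte and progenitor markers 7 and 0 (median 0.46). Of 12 lymphocyte markers 3 rose and 0 fell, and of 9 neutrophil markers 0 were called (median 0.04). More cells of a type and more RNA per cell cannot be told apart in whole liver. Of the 11 defining macrophage markers 10 were called, among them the receptor Csf1r (1.47), the Kupffer cell lectin Clec4f (0.86) and the complement subunit C1qa (1.61), which were picked as examples after their values were seen. Among stellate genes the receptors Pdgfra (1.44, SE 0.18, adjusted p = 9.91e-06) and Pdgfrb (1.48, SE 0.26, adjusted p = 0.000467) rose. The endothelial genes Plvap (1.05, adjusted p = 5.53e-05) and Rspo3, a Wnt agonist (0.79, adjusted p = 5.43e-05), rose too. For Acta2, smooth muscle actin, the change was 0.16 (adjusted p = 0.689). Among the other defining stellate markers Col1a2, Col3a1, Lrat and Reln were called higher, and Col1a1 and Des were not called. Of the tested defining cholangiocyte markers Epcam was called higher, while Krt19 (0.28) and Sox9 (0.18) were not called. Of the endothelial ones Cdh5, Lyve1, Clec4g and Pecam1 were called higher, the last mostly under the filter's level. Kdr (0.235) and Stab2 (0.01) were not called.

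Without treated knockout arrays 4, 5 and 7 the macrophage counts became 0 higher and 1 lower with a median of 0.98. The 3 arrays were left out for their high means of this same list, so a smaller macrophage difference was built into the choice. In that fit 12 stellate and 8 endothelial markers rose, and 0 cholangiocyte and 0 lymphocyte markers were called (medians 0.26 and 0.23). Leaving out untreated knockout arrays 2, 6 and 7 as well, whose macrophage means were 9.0, 9.37 and 9.14, gave 18 macrophage, 20 stellate and 18 endothelial markers on the higher side. Untreated knockout array 1, with a macrophage mean of 8.55, was kept. In that fit 18.8% of all genes were called, against 8.46% without the first 3 arrays alone. The untreated knockout arrays do not enter the difference itself, only the shared estimate of spread. Of 30 interferon response genes 5 rose and 0 fell although the median was 0.84, and 0 rose without arrays 4, 5 and 7. Those that rose were 16.7% of the list, against 12.7% of all genes. The mean of the list was 8.87 in untreated and 8.56 in treated knockout.

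Ubd, an interferon-induced ubiquitin-like protein, had the largest rise after Cyp2b10 and Cyp2b9, with a wide spread. It read 3.90, 3.85, 3.86, 4.25 and 3.77 in untreated wild type and 6.91, 4.58, 8.12, 12.13, 11.99, 6.18 and 11.54 on treated knockout arrays 1 to 7. All 5 untreated wild-type values lay under the filter's level of 4.52 to 4.60, so the size and rank of the rise are uncertain. Treated knockout arrays 4, 5 and 7 were again the extreme ones. The log2 change was 4.85 (SE 1.6, adjusted p = 0.0391), and it lost its call without any 1 of the 5 untreated wild-type arrays or without treated knockout array 4, 5 or 7, with adjusted p up to 0.0817. Without these 3 together it was 2.52 (adjusted p = 0.405).

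A state that neither single change gave was defined by 3 tests: treated knockout had to differ from untreated wild type, from untreated knockout and from treated wild type, each time in the same direction. It was met by 69 genes (0.499%), 32 higher (0.231%) and 37 lower (0.268%). In 13 of them the treated knockout arrays overlapped with no array of any other group. The choice of genes by these differences favours such separation, and its share over all genes was not counted. The smallest of the 3 differences had a median size of 0.26 on the log2 scale, and only the lower genes Cyp2c68, Cyp2e1 and Ang kept a 2-fold difference from each group. In 40 of the 69 genes neither single change was called, in 9 both were called in the joint direction, and in 5 the interaction was called. Over all 13826 genes the deletion alone was called in 3453, the drug in wild type in 532 and the interaction in 121. When the largest of the 3 p values was adjusted over all genes, a stricter rule added after the data were seen, 10 genes passed, 3 higher and 7 lower. In all 23 fits that left out 1 array, 22 of the 69 kept the state. The count itself fell to 37 without treated knockout array 1 and to 45 without treated wild-type array 1 or 4, and rose to 104 without untreated knockout array 7. Without treated knockout arrays 4, 5 and 7 it was 44, with 26 of the 69. Of the 40 state genes with more than 1 tested probe set, 6 had another probe set in the state and 2 had one called the other way against untreated wild type. Averaging the probe sets of a gene gave 60 genes, with 34 of the 69.

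**Figure D5:**
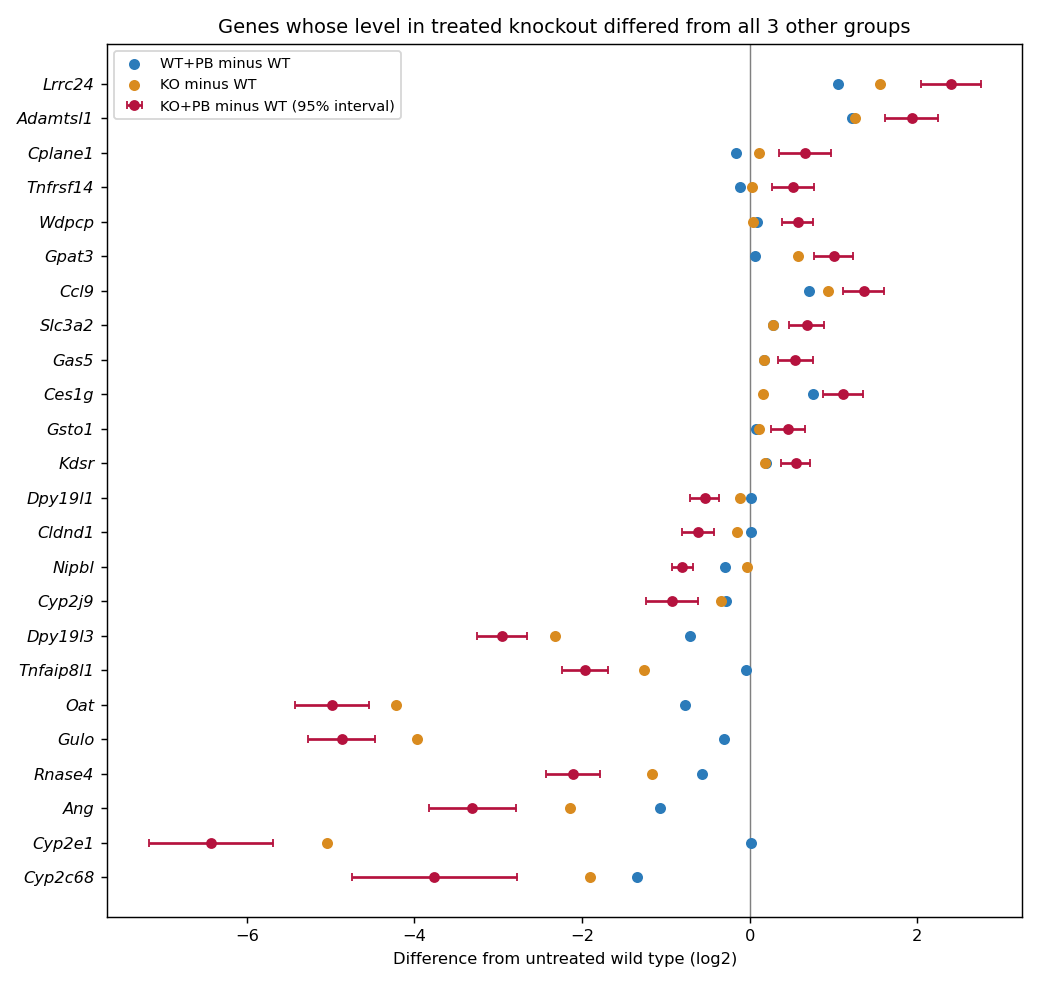
Log2 difference from untreated wild type for the 24 genes named from this state. Blue points show treated wild type, orange points untreated knockout and red points treated knockout with its 95% interval. In every gene the red point lies furthest from 0, which follows from how the genes were chosen.

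Among the lower genes were the neighbours Rnase4 and Ang, which encode secreted ribonucleases (ribonuclease 4 and angiogenin). In RefSeq they share a start on the plus strand of chromosome 14, so the 250 bases before it, chr14:51090827-51091076 (GRCm38.p6), are the same for both, and Rnase4 has a second start in the table. The shared stretch is shown because both genes were lower in treated knockout than in every other group. It holds neither AGGTCA nor CTTTGAT on either strand, the letters of a nuclear receptor half-site and of a TCF site (14% and 3.21% of all promoters of this length hold them), so nothing is in capitals.
Rnase4 and Ang: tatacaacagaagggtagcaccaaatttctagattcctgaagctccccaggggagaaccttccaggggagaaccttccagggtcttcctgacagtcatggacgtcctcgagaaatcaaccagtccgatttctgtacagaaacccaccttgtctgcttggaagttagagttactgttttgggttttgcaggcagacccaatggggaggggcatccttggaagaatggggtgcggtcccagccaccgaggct

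Rnase4 read 13.51, 13.56, 13.43, 13.40 and 13.33 in untreated wild type and 12.95, 12.65, 12.87 and 13.07 in treated wild type. In untreated knockout it lay between 11.81 and 12.76, with a median of 12.22, and in treated knockout between 10.60 and 11.78, with a median of 11.40. Treated knockout overlapped with none of the 3 groups. The log2 changes were -2.11 against untreated wild type (SE 0.16, adjusted p = 2.68e-09), -0.94 against untreated knockout (adjusted p = 0.000803) and -1.55 against treated wild type (adjusted p = 1.06e-06). Ang read 11.06, 10.93, 10.68, 10.77 and 10.95, then 9.91, 9.47, 9.72 and 10.11 with the drug, 8.12 to 9.97 with a median of 8.49 with the deletion, and 6.66 to 8.18 with a median of 7.59 with both. Only 1 treated knockout array, at 8.18, reached into the range of untreated knockout. Its joint log2 change was -3.31 (SE 0.25, adjusted p = 3.47e-09), and all 3 of its probe sets were called lower. In the mean of its probe sets Ang no longer met the state (largest adjusted p = 0.0655). For both genes the joint change was close to the sum of the single changes (interactions -0.38 and -0.09, adjusted p = 0.641 and 0.977). The drug change in wild type was -1.075 for Ang (adjusted p = 0.0354), and that of Rnase4, -0.56, was not called (adjusted p = 0.0891).

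Gulo, the last enzyme of ascorbate synthesis (chromosome 14, 65986786 to 66009254), read 11.28, 11.33, 11.24, 11.29 and 11.07 in untreated wild type and 5.91 to 7.15, with a median of 6.35, in treated knockout. Untreated knockout had stopped at 6.72 to 7.83. The log2 change was -4.87 (SE 0.19, adjusted p = 3.92e-14), and that against untreated knockout -0.90 (adjusted p = 0.00817). Tnfaip8l1 went from 8.85 ± 0.17 (n = 5) over 7.59 ± 0.28 (n = 7) in untreated knockout to 6.88 ± 0.26 (n = 7), a joint log2 change of -1.97 (SE 0.13, adjusted p = 4.82e-10). With the drug in wild type its change was -0.04 (adjusted p = 0.951), against -0.72 in knockout (adjusted p = 0.00226), and the difference of those drug changes did not pass (-0.67, adjusted p = 0.133). Dpy19l3, a C-mannosyltransferase, fell by 2.96 (SE 0.14, adjusted p = 1.27e-12) but left the state without treated knockout arrays 4, 5 and 7 or in the mean of its probe sets (adjusted p = 0.0629 and 0.116), and its paralog Dpy19l1 by 0.54 (SE 0.081, adjusted p = 7.33e-05). Leaving out 1 array at a time, the state of Rnase4, Ang, Gulo, Tnfaip8l1, Dpy19l3 and Dpy19l1 was kept in all 23 fits.

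Nipbl, which loads cohesin onto chromatin (chromosome 15, 8289824 to 8465315), was the named gene of this state with a called interaction. It read 8.12, 8.25, 8.14, 8.29 and 8.34 in untreated wild type, 7.98, 7.89, 7.88 and 7.97 in treated wild type, 8.04 to 8.31 with a median of 8.2 in untreated knockout, and 7.25 to 7.58 with a median of 7.46 in treated knockout. All 7 treated knockout arrays lay below the 16 others. The joint log2 change was -0.81 (SE 0.06, adjusted p = 3.09e-09) and the interaction -0.48 (adjusted p = 0.00764). Of its 5 probe sets 3 were called lower, and their changes ranged from -0.81 to -0.08. In the mean of its probe sets Nipbl kept the state, but its interaction was -0.10 and not called (adjusted p = 0.577). Cldnd1, a claudin-like membrane protein, likewise overlapped with no other array: its values were 7.63 to 8.16 against 8.23 to 8.77 elsewhere (joint change -0.62, SE 0.09, adjusted p = 4.76e-05). Its second tested probe set changed by -0.03 and was not called, and in the mean of both Cldnd1 did not meet the state (adjusted p = 0.244). The other 4 genes of the state with a called interaction were the acetyltransferase Crebbp, the GTPase regulator Adap2, the RNA helicase Upf1 and the cobalamin enzyme Mmachc, named after their values were seen. Their joint log2 changes were -0.31, -0.22, 0.21 and 0.19.

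Other members were less firmly placed. Cyp2c68, a P450 (chromosome 19, 39688836 to 39741101), read 12.32, 12.12, 12.07, 12.51 and 12.49 in untreated wild type, 11.14, 10.59, 11.58 and 10.52 in treated wild type, 8.70 to 11.47 with a median of 11.19 in untreated knockout, and 6.96 to 9.71 with a median of 8.73 in treated knockout. The joint log2 change was -3.76 (SE 0.47, 95% interval -4.74 to -2.78, adjusted p = 8.25e-06). Treated knockout overlapped with untreated knockout arrays 2, 6 and 7 only, which read 9.67, 9.05 and 8.70. Its place in the state was lost without untreated knockout array 1, 4 or 5 or treated knockout array 1 or 7, with the largest of the 3 adjusted p up to 0.0544. Cyp2e1 was lower than in untreated knockout by 1.39 (adjusted p = 0.0261), which did not hold without untreated knockout array 2 or 5 or treated knockout array 1 or 5 (adjusted p up to 0.0535). Oat, ornithine aminotransferase, was lower than in untreated knockout by 0.77 (adjusted p = 0.0397), and this was lost in 13 of the 23 fits (up to 0.0864). Its joint log2 change of -4.99 (SE 0.21, adjusted p = 1.39e-13) was called in each. Without treated knockout arrays 4, 5 and 7 together, Cyp2c68 and Cyp2e1 left the state and Oat did not.

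Among the higher genes Lrrc24, which encodes a leucine-rich repeat protein, stood furthest apart (chromosome 15, 76715276 to 76722173). It read 4.15, 4.59, 4.80, 4.89 and 4.52 in untreated wild type, 5.75, 5.66, 5.66 and 5.51 in treated wild type, 5.77 to 6.75 with a median of 6.10 in untreated knockout, and 6.58 to 7.64 with a median of 6.91 in treated knockout. The steps upwards were 1.05 for the drug, 1.55 for the deletion and 2.40 for both (SE 0.17, adjusted p = 1.76e-09), with an interaction of -0.20 (adjusted p = 0.889). The untreated wild-type values lay near the filter's level of 4.52 to 4.60, so the sizes of these steps are uncertain. Only untreated knockout array 1, at 6.75, reached the range of treated knockout. Slc3a2, the heavy chain of amino acid transporters, rose by 0.68 (SE 0.099, adjusted p = 5.43e-05), Tnfrsf14, a receptor of the TNF family, by 0.52 (SE 0.12, adjusted p = 0.00404), the ciliary protein gene Wdpcp by 0.57 (SE 0.09, adjusted p = 0.000125) and Kdsr, an enzyme of sphingolipid synthesis, by 0.55 (SE 0.084, adjusted p = 9.21e-05). Adamtsl1, a secreted matrix protein, rose by 1.93 (SE 0.15, adjusted p = 6.4e-09) from single changes of 1.26 and 1.22. These 6 genes kept the state in all 23 fits. Without treated knockout arrays 4, 5 and 7, Adamtsl1, Tnfrsf14 and Kdsr no longer met it, and Tnfrsf14 was no longer called against untreated wild type (adjusted p = 0.079). Kdsr also left it in the mean of its probe sets (adjusted p = 0.559). For the chemokine Ccl9 (joint change 1.36), the carboxylesterase Ces1g (1.11), the acyltransferase Gpat3 (1.0), Cplane1 (0.66), the noncoding RNA Gas5 (0.55) and the glutathione transferase Gsto1 (0.46) it was lost in 3 to 15 of the 23 fits.

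Some genes fell with the deletion and rose again with the drug, or the reverse. Both steps, knockout against wild type without drug and drug against no drug in knockout, were called with opposite sign in 89 genes (0.644%). Both use the untreated knockout arrays in opposite directions, so a chance deviation of those arrays enters both. The joint change is the sum of these steps and is given as a description of where the genes ended, beside the 21.2% of all genes called. The drug moved 50 of them up, and in 44 of those the joint change was not called, in 1 it was higher and in 5 lower. It moved 39 down, with 32 not called, 5 higher and 2 lower. The 95% interval of the joint change lay within 0.5 log2 units of 0 in 40 and 33 genes. Without treated knockout array 1 the count was 52. After quantile normalization 67 of 97 such genes moved up with the drug.

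The genes with the largest return were P450s of the Cyp2c cluster on chromosome 19. The 250 bases before the starts of Cyp2c37 (chr19:39992174-39992423, plus strand), Cyp2c50 (chr19:40089429-40089678, plus strand) and Cyp2c68 (chr19:39741102-39741351, minus strand) are shown because the first pair returned with the drug while Cyp2c68 fell further. Capitals mark the 114 bases that all 3 share in a MAFFT alignment. Cyp2c37 and Cyp2c50 were identical in 212 of 255 aligned columns (83.1%), and Cyp2c37 and Cyp2c68 in 123 of 295 (41.7%). None of the 3 holds AGGTCA or CTTTGAT on either strand.
Cyp2c37: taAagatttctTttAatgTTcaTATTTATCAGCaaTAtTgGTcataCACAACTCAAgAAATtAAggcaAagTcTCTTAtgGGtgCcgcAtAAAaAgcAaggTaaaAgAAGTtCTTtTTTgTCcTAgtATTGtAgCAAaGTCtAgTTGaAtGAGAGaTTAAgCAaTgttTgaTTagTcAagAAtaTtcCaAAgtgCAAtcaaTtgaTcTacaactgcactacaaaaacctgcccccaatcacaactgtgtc
Cyp2c50: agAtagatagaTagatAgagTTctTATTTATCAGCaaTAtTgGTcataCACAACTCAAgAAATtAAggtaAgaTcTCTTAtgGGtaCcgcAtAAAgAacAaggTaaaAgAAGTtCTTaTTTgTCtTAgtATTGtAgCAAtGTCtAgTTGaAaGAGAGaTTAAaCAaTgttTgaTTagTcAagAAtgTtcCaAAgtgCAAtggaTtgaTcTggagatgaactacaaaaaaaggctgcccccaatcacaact
Cyp2c68: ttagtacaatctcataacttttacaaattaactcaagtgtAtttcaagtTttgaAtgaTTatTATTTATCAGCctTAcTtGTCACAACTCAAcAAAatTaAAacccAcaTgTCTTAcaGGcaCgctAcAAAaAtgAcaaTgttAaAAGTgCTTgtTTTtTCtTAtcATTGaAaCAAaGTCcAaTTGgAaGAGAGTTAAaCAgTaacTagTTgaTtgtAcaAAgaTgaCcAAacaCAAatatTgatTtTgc

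Cyp2c37 read 10.45, 11.19, 11.03, 11.65 and 10.63 in untreated wild type, 13.19, 13.34, 13.37 and 13.25 in treated wild type, 5.66 to 8.39 with a median of 7.02 in untreated knockout, and 11.08 to 12.30 with a median of 11.47 in treated knockout. The last group overlapped with untreated wild type alone. Deletion lowered it by 4.0 and the drug in knockout raised it by 4.64 (adjusted p = 4.14e-08 and 4.39e-09), which left a joint log2 change of 0.65 (95% interval -0.07 to 1.36, adjusted p = 0.189). It ended 1.65 below treated wild type (adjusted p = 0.00343). The drug raised it more in knockout than in wild type (interaction 2.34, adjusted p = 0.0236), a call lost without untreated wild-type array 2 or treated wild-type array 1, 3 or 4 (up to 0.0605). Cyp2c54 and Cyp2c50 also had opposite steps, with drug changes in knockout of 3.24 and 3.00 (adjusted p = 0.00226 and 0.000451). Their joint changes were 1.05 (95% interval -0.19 to 2.29) and 0.73 (95% interval -0.25 to 1.70), and for both every treated knockout array lay above every untreated wild-type array. Neither was called (adjusted p = 0.218 and 0.282), but a fit on only the 2 groups compared called both higher (0.00283 and 0.000199), as did the fit without untreated knockout arrays 2, 6 and 7 (0.0018 and 0.000106). Cyp2c37 was called higher in the fit without those and treated knockout arrays 4, 5 and 7 (0.93, adjusted p = 0.0215). Untreated knockout spread widely, from 6.91 to 11.81 for Cyp2c54. Probe sets of close paralogs may take up each other's RNA, which was not tested.

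Cyp1a2, a perivenous P450 that metabolises caffeine, returned only in part. It read 12.52, 12.63, 12.56, 12.83 and 12.58 in untreated wild type and 10.56 to 11.41, with a median of 11.28, in treated knockout. Untreated knockout had lain between 8.93 and 10.41. The joint log2 change was still -1.5 (SE 0.18, adjusted p = 3.54e-06). Among genes that rose with the deletion and fell with the drug, Acta2 and the tropomyosin Tpm2 ended with joint changes of 0.16 and 0.11 (95% intervals -0.36 to 0.68 and -0.18 to 0.39), and the lipid carrier Fabp4 with 0.71 (95% interval 0.17 to 1.26, adjusted p = 0.0559). Smc6, of the SMC5/6 complex, fell past its start, by 0.32 (SE 0.066, adjusted p = 0.00162), but by 0.11, no longer called, in the mean over its probe sets.

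Some genes had a drug change in wild type that differed from that in knockout. Meg3, a noncoding RNA of the imprinted Dlk1-Dio3 region (chromosome 12, 109540996 to 109571729), read 8.37, 9.24, 8.78, 9.09 and 8.49 in untreated wild type and 10.999, 10.86, 10.78 and 10.83 in treated wild type. In treated knockout it lay between 6.93 and 7.27, with a median of 7.08, below all wild-type arrays and overlapping with untreated knockout (7.06 to 7.31). The joint log2 change was -1.72 (SE 0.11, adjusted p = 1.85e-10) and the interaction -2.18 (adjusted p = 1.76e-08). Of its 11 probe sets 5 were called lower and 0 higher. Its neighbours Rian and Mirg fell by 1.73 (SE 0.18, adjusted p = 4.62e-07) and 0.44 (SE 0.07, adjusted p = 0.00012), so that all 3 tested RNAs of the region were lower.

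Egr1, an immediate-early transcription factor, fell by 3.85 with the drug in wild type (adjusted p = 7.54e-06). Treated knockout read 8.66 to 11.12 with a median of 10.26, against 10.67, 11.10, 10.85, 10.25 and 10.92 in untreated wild type (joint change -0.65, 95% interval -1.46 to 0.15, adjusted p = 0.236). The interaction was 3.22 (adjusted p = 0.00465). Prom1, a membrane protein of progenitor cells, rose by 3.20 with the drug in wild type and reached a joint change of 0.96 (adjusted p = 0.0415, interaction -2.89, adjusted p = 0.00277). That joint call was lost in 7 of 23 fits, without untreated wild-type array 2, 3, 4 or 5 or treated knockout array 4, 5 or 7 (up to 0.101), and without these last 3 together (0.405).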

How the data were processed

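The deposited series table holds log2 signals of 45037 Affymetrix probe sets on 23 arrays. Per the submitters' processing notes the authors used RMA in the affy package, whose version is not given in the sources used here. RMA quantile-normalizes arrays together, so a change shared by most genes is not visible in these values. The platform annotation gave 34945 probe sets a single gene, 932 several and 9160 none.

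Each of 18193 genes was represented by 1 probe set, and 13826 were kept that exceeded the 40th percentile of the array on at least 4 arrays. limma 3.58.1 in R 4.3.3 was fitted on the 4 groups together, with Benjamini-Hochberg adjustment over all genes tested, a threshold of 0.05 and 95% intervals. The script was checked on simulated data. Named genes were the 12 largest non-overlapping rises and falls, the 12 genes in each direction with the largest smallest difference of the joint state, the 6 largest drug changes in each direction among genes whose deletion and drug changes in knockout were opposite, up to 4 called members of each of 38 lists with at least 3, and 25 genes chosen by name. Placeholder names were left out. The members and lists were chosen with earlier results of these data known. Alternatives changed the filter, the scaling, the probe set rule, the variance model, the arrays used and a block on replicate number. Promoter sequences came from RefSeq (GRCm38.p6) and were aligned with MAFFT 7.526. The number of arrays limits the precision.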

Additional observations from a re-analysis of the deposited data

Results flagged for a closer look

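In 13 of 318 groups of 5 or 7 arrays, 1 array stood far from the rest of its group. Chance gives such a result in about 1 in 20 groups, so this number is not above chance. In treated knockout these were array 5 for Adamtsl1 (6.84, against 6.14 to 6.43 on the others), Cyp51 (10.47), Jchain (8.13, against 5.51 to 6.13) and Nsdhl (10.20), array 2 for Ddit4 (10.64), array 6 for Cycs (12.22) and array 7 for Slco1b2 (10.81). In untreated wild type they were array 1 for Gpat3 (7.73) and Hsd17b13 (8.21, against 9.19 to 9.39), array 3 for Cyp2e1 (13.94) and array 4 for Cyp2g1 (7.23), Smc6 (7.81) and Ubd (4.25).

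The drug change differed between knockout and wild type by a called interaction in 16 of the named genes. It was smaller or more negative in knockout for Cyp2b10 (-3.95), Cyp2b9 (-3.69), Prom1 (-2.89), Cyp2c65 (-2.83), Nebl (-2.83), Abcc4 (-2.35), Meg3 (-2.18), Gadd45b (-1.82), Rian (-1.204) and Nipbl (-0.48). It was larger or less negative for Egr1 (3.22), Cyp2c37 (2.34), Aldh1b1 (1.17), Slc1a2 (1.17), Lgr5 (1.09) and Acaa1a (0.71). Of these 16 interactions 9 were called in all settings tried. Leaving out 1 array ended the call in 15 of 23 fits for Slc1a2, 12 for Aldh1b1, 9 for Cyp2b9, 7 for Abcc4 and 4 each for Cyp2c37 and Rian.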

How the results depend on the processing

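Counts are given in the order joint change, joint state, opposite changes in knockout and interaction, with 2935, 69, 89 and 121 as reported. Testing every probe set gave 169, 158 and 200 for the last 3. A minimum of 2-fold gave 399, 3, 8 and 42. Array weights gave 167 for the joint state and 323 for the interaction. Without untreated knockout arrays 2, 6 and 7 those 2 counts were 321 and 273. Chosen after seeing the data, leaving out treated knockout arrays 4, 5 and 7 gave 1169 and 44 for the first 2, leaving out all 6 arrays gave 130 for the joint state and 194 for the interaction, and adjusting the largest of the 3 p values gave 10 for the joint state. Leaving out 1 array gave 2249 to 3484, 37 to 104, 52 to 112 and 63 to 146. The ends were treated knockout array 4 and untreated knockout array 7, treated knockout array 1 and untreated knockout array 7, treated knockout array 1 and untreated knockout array 3, and treated wild-type array 3 and untreated knockout array 7. The joint state count was 45 without treated wild-type array 1 or 4, and the interaction count 75 and 78. The cause was not tested. Quantile normalization left the opposite changes at 97, with 67 rising with the drug against 50 of 89. Of 144 called joint changes of named genes, 85 were called in all settings, and none of the 159 changed sign while called.

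A block on replicate number gave 1804, 37, 53 and 96. Same-numbered arrays of untreated wild type and treated knockout had correlations of -0.30 to -0.02. Those of untreated and treated knockout ranged from -0.695 to 0.628, and those of treated wild type and treated knockout from -0.172 to 0.0572. These values do not settle whether the numbers pair the samples. Values under the filter's level of 4.52 to 4.60 limit the size of a change.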
